A study of Mus musculus with 6 samples.

Results

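The genes described here are 37 lysosomal genes: the proteases, glycosidases, sulfatases, lipid hydrolases and membrane proteins of the lysosome, with the transcription factor gene Tfeb. They were chosen by name, with earlier results of these data known. By symbol, each of the 37 genes matched 1 of the 53801 gene identifiers in the count files. Their transcripts were counted in MC3T3-E1, a pre-osteoblast line from mouse. Cells infected with a lentivirus carrying a scrambled RNA (scramble, the Control samples, n = 3) were compared with cells infected with a lentivirus carrying a short hairpin RNA against Hdac4 (Hdac4-shRNA, the Hdac4-knockdown samples, n = 3). Hdac4 encodes a class IIa histone deacetylase. Both groups carried the integrated virus with its fluorescent and puromycin-resistance markers, and both were selected in puromycin at 5 µg/mL for 7 days. Libraries were made from polyA RNA without strand information. The study calls the samples biological replicates, but whether they came from separate infections is not given in the sources used here, so the p-values measure the spread between these samples, which may be technical. The counts are of bulk cells, in which fewer cells of a type and less RNA per cell cannot be told apart.

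Lysosomes are acidic organelles in which proteins, glycans and lipids are broken down by soluble hydrolases. Most of these enzymes are tagged with mannose 6-phosphate in the Golgi, carried to the lysosome by receptors, and activated there at low pH. TFEB and its relatives bind a short E-box-like motif in the promoters of many lysosomal genes. In bone, the cysteine protease cathepsin K is best known from osteoclasts, which secrete it to digest collagen.

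The libraries held 29096544 to 31651826 read counts on genes, and the share of read pairs outside any gene was 3.17% to 3.41% in scramble and 4.64% to 5.07% in Hdac4-shRNA libraries. Hdac4 had 1243, 1204 and 1136 counts in scramble and 950, 927 and 887 counts in Hdac4-shRNA libraries, 73.6% of the scramble level (log2 fold change -0.44, SE 0.06, adjusted p = 8.98e-07). Here and below, log2 fold changes are Hdac4-shRNA over scramble from edgeR's quasi-likelihood test on counts scaled by TMM, p-values are Benjamini-Hochberg adjusted over all 14531 genes tested, and a gene was called at an adjusted p below 0.05 with a log2 fold change of at least 0.05 in size. Levels are CPM (counts relative to a fixed library total, scaled in the same way). Of the osteoblast markers, Runx2, Col1a1, Col1a2 and Spp1 were expressed in every library, whereas Alpl had 0 to 3 counts and Ibsp 0 to 7, and Bglap 0 to 12.

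Of the 37 members, 35 had enough counts to be tested. Among these, 24 (68.6%) were called higher in the Hdac4-shRNA libraries, where 38.0% of all genes tested were called higher, and 9 (25.7%) were called lower, where the share over all genes was 37.1%. The median log2 fold change of the 35 members was 0.36, beside 0.01 over all genes tested. The differences were mostly modest: the median size was 0.43 for the members and 0.46 for all genes. At a log2 fold change of at least 0.5 in size, 12 members were higher (34.3%, beside 24.6% of all genes) and 4 were lower (11.4%, beside 19.8%). At a size of at least 1, 6 were higher (17.1%, beside 16.5%) and 1 was lower (2.86%, beside 10.6%). The CPM of the 3 scramble and the 3 Hdac4-shRNA libraries did not overlap in 32 members (91.4%), where 76.8% of all genes showed no overlap. For a single gene the exact two-sided permutation test of 3 libraries against 3 can give no p below 0.1.

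**Figure D1:**
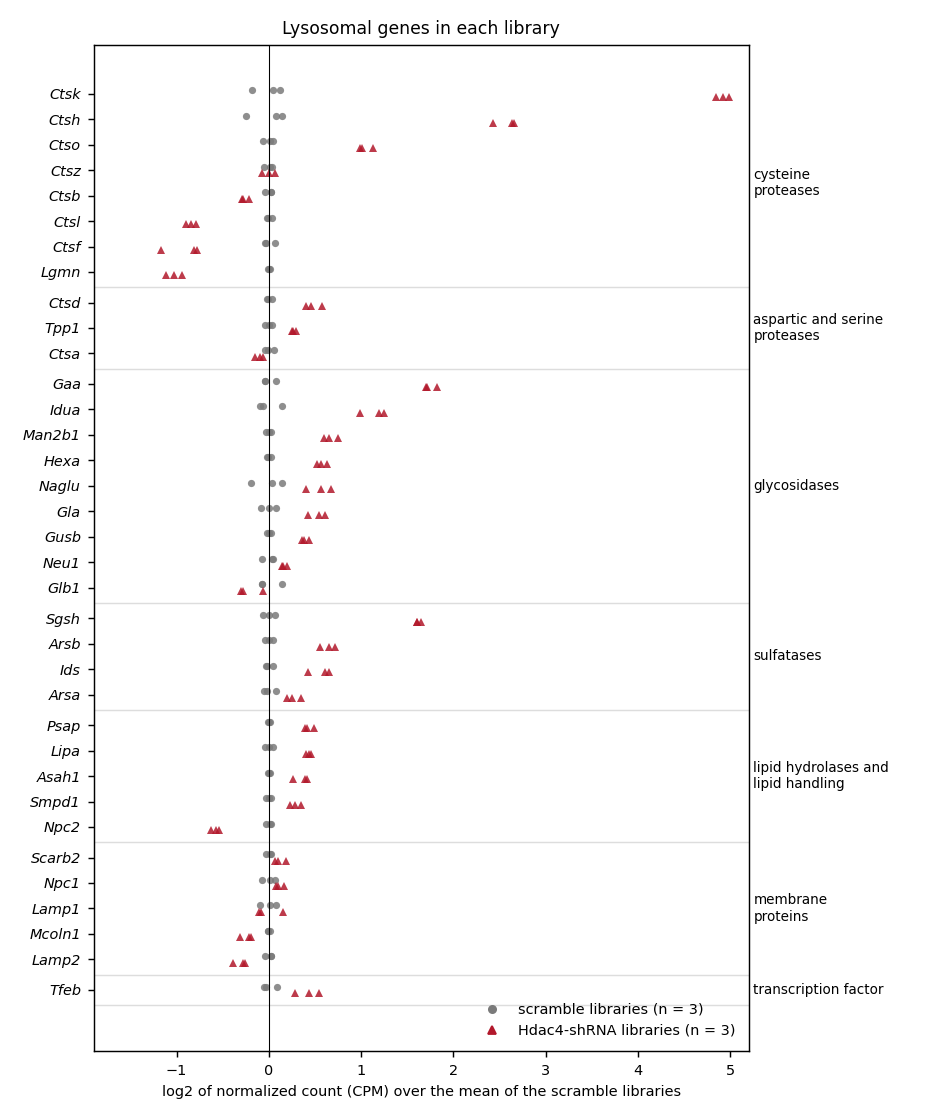
Each tested lysosomal gene is a line, and each point is the log2 ratio of 1 library's CPM to the mean of the scramble libraries (grey circles scramble, red triangles Hdac4-shRNA, n = 3 each), with genes grouped by role. Ctsk stands farthest to the right at a log2 fold change of 4.91, the glycosidases and sulfatases lie mostly to the right of the scramble libraries, and Ctsl, Ctsf and Lgmn lie to the left.

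The cysteine proteases included both higher and lower genes, in shares not far from those of all genes tested. This group holds the papain-like cathepsins and legumain (Lgmn), an asparaginyl endopeptidase that cuts other cathepsins during their maturation. Of its 8 tested members 3 were higher (37.5%, beside 38.0% of all genes), 4 were lower (50%, beside 37.1%) and 1 was not called. The group held the largest rise and the largest fall of all members, and its median log2 fold change was -0.13.

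Ctsk, on chr3:95499256-95509362 of GRCm38, plus strand, encodes cathepsin K, the collagen-cutting cathepsin. It had 82, 84 and 65 counts in scramble and 2300, 2653 and 2363 counts in Hdac4-shRNA libraries. Every Hdac4-shRNA library was far above every scramble library. The CPM rose 30.3-fold, from 2.59 ± 0.28 to 78.4 ± 4.0 (SD, n = 3 each), which is a log2 difference of 4.91 (SE 0.08, adjusted p = 1.78e-20). Its neighbour Ctss (cathepsin S, an antigen-processing protease of immune cells) begins 17423 bases downstream of it on the same strand. Ctss stayed at 3, 3 and 1 counts in scramble and 2, 1 and 1 in Hdac4-shRNA libraries, too few to be tested. No 50-base stretch of the Ctsk transcripts occurs in a transcript of another gene.

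Ctsk is also an osteoclast gene, and Ctss and Ctsc are leukocyte genes, so the levels of markers of those cells are given beside it. Of 8 osteoclast markers, Calcr and Dcstamp had no count in any library and Oscar, Ocstamp, Acp5 and Tnfrsf11a had at most 7. Most of these few counts were in Hdac4-shRNA libraries. Summed over scramble against Hdac4-shRNA libraries, Oscar had 0 against 3, Ocstamp 0 against 9, Acp5 2 against 10 and Tnfrsf11a 0 against 11. Mmp9 and Nfatc1, which other cells also express, were the only tested markers of the 8, and both were higher, with log2 fold changes of 1.46 and 1.34. The summed osteoclast list went from 27.6 to 30.6 CPM in scramble to 71.9 to 75.9 CPM in Hdac4-shRNA libraries, nearly all of it Nfatc1. Of 10 leukocyte markers, Adgre1 had no count, Tyrobp at most 1 and Ptprc at most 9. The group totals of the untested markers were also higher in Hdac4-shRNA libraries. They were 1 against 12 for Ptprc, 0 against 11 for Itgam, 7 against 24 for Fcer1g, 0 against 6 for Aif1 and 5 against 7 for Cx3cr1. Of the 3 tested, Csf1r had 3, 4 and 6 counts in scramble and 19, 23 and 22 in Hdac4-shRNA libraries (log2 fold change 2.20, adjusted p = 0.000195). Lyz2, the lysozyme gene of myeloid cells, had 5, 1 and 2 counts against 72, 95 and 81 (29.8-fold, log2 fold change 4.82, adjusted p = 9.56e-10). Cd14, with 337 to 411 counts in scramble and 396 to 486 in Hdac4-shRNA libraries, was not called and made up most of the summed list. The summed leukocyte list went from 12.3 to 13.9 CPM in scramble to 16.6 to 19.2 CPM in Hdac4-shRNA libraries. The part of these markers in the Ctsk result was not tested. In the same libraries the type I collagen gene Col1a1 rose 32.6-fold (log2 fold change 5.03, SE 0.04, adjusted p = 6.19e-24) and the osteoblast factor gene Sp7 went from 4, 7 and 2 to 74, 112 and 68 counts. The other type I collagen gene, Col1a2, was also higher (log2 fold change 2.82), while the matrix protein gene Spp1 fell to 64.9% of the scramble level (log2 fold change -0.62, adjusted p = 1.82e-12). Runx2 was called higher by 0.19 with overlapping groups.

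Ctsh (chr9:90054152-90076089), an aminopeptidase among the cathepsins, had 95, 98 and 71 counts in scramble and 491, 589 and 559 in Hdac4-shRNA libraries. It rose 5.94-fold (log2 fold change 2.57, SE 0.12, adjusted p = 1.21e-13). Ctso (chr3:81932601-81956725), a widely expressed cathepsin, had 340, 351 and 341 counts against 786, 741 and 700. It rose 2.06-fold (log2 fold change 1.04, SE 0.08, adjusted p = 2.6e-10). These genes, like Ctsk, started from low levels: per kb of exon, scramble cells held 0.657 CPM of Ctsh, 2.27 CPM of Ctso and 1.71 CPM of Ctsk, beside 210 CPM of Ctsb.

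The abundant cysteine proteases fell or were not called. Lgmn (chr12:102394084-102439813) had 3761, 3648 and 3443 counts in scramble and 1741, 2042 and 1803 in Hdac4-shRNA libraries. It fell to 49.1% of the scramble level (log2 fold change -1.03, SE 0.05, adjusted p = 2.29e-13), and it was the only member lower by a log2 of at least 1. Ctsl (chr13:64359337-64370890), a potent endopeptidase, had 31401, 29933 and 28368 counts against 16669, 18810 and 16850. It fell to 55.6% (log2 fold change -0.85, SE 0.04, adjusted p = 1.2e-13). Its counts are less certain, since 26.8% of its exon bases also lie in exons of Gm49230 on the same strand and Gm47123 on the opposite strand. Ctsb (chr14:63122462-63145923), a cathepsin that works both as an endopeptidase and as a carboxypeptidase, had 39279, 38512 and 35415 counts against 32104, 35376 and 31641. Its fall was small, to 83.5% (log2 fold change -0.26, SE 0.04, adjusted p = 2.87e-06), with 12.8% of its exon bases shared with Fdft1 on the opposite strand. Ctsf had only 38 to 39 counts in scramble and 18 to 24 in Hdac4-shRNA libraries, and fell to 53.4% (log2 fold change -0.90, SE 0.28, adjusted p = 0.00803).

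Ctsz, which encodes the carboxypeptidase cathepsin Z, had 5345, 5313 and 4771 counts in scramble and 5066, 5837 and 5197 in Hdac4-shRNA libraries. The groups overlapped and the gene was not called (log2 fold change -0.01, 95% interval -0.09 to 0.08, adjusted p = 0.903), with a sign that turned positive when counts were scaled by library size (0.05) or upper quartile (0.08). Ctsc (dipeptidyl peptidase I, which activates the proteases of leukocyte granules) had 0, 0 and 1 counts against 1, 1 and 0. At this depth no difference in Ctsc or Ctss was detectable, and no fold is given for either.

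The coding stretch around the catalytic cysteine is shown for the 7 tested papain-like genes and for Ctss, because these enzymes share an active site while their transcripts differed in direction. Each run is 48 bases of the coding strand read from the reference transcript, 5′ to 3′, with the codon of the catalytic cysteine in capitals. That codon was found from the residues around it in the translated reading frame, and the coordinates (GRCm38) are the outer bases of the run in the genome, which in all but Ctsz cross an exon junction.
Ctsk (chr3:95501701-95502623, plus strand, exons 4 and 5): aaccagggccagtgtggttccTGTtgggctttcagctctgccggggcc
Ctss (chr3:95543157-95545374, plus strand, exons 4 and 5): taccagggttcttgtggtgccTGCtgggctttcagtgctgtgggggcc
Ctsl (chr13:64367051-64367865, minus strand, exons 5 and 6): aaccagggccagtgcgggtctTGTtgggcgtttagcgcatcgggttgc
Ctsb (chr14:63135696-63136427, plus strand, exons 4 and 5): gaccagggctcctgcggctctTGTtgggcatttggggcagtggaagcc
Ctsh (chr9:90064252-90064548, plus strand, exons 5 and 6): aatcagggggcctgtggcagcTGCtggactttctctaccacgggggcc
Ctso (chr3:81942321-81944897, plus strand, exons 3 and 4): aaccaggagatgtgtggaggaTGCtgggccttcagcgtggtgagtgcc
Ctsf (chr19:4858327-4858457, plus strand, exons 7 and 8): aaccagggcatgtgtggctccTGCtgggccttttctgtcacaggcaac
Ctsz (chr2:174438172-174438219, minus strand, exon 2): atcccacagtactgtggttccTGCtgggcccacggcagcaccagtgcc

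Over these 48 bases the rising gene Ctsk matched the falling gene Ctsl at 36 positions and the nearly silent gene Ctss at 37. The rising genes Ctsk and Ctsh matched each other at 31, and Ctsk and the falling gene Ctsb also matched at 31. These pairs are examples, and no relation of the match to the direction was tested. The lowest match among the runs printed was 22, between Ctsz and Ctsb.

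Per kb of exon, the summed level of the 10 cysteine protease genes was 550.1, 547.6 and 531.6 CPM in scramble and 450.2, 487.5 and 466.3 CPM in Hdac4-shRNA libraries. The sum was lower in every Hdac4-shRNA library, and its make-up differed as well. Ctsk held 0.315% ± 0.028 of the summed level in scramble and 11.1% ± 0.13 in Hdac4-shRNA libraries (SD, n = 3 each). Ctsl went from 28.6% ± 0.39 to 18.5% ± 0.03 and Lgmn from 9.66% ± 0.11 to 5.5% ± 0.11. Ctsb stayed the largest share, at 38.7% ± 0.12 and 37.5% ± 0.50, and Ctsz went from 22.1% ± 0.33 to 25.6% ± 0.29 while its own level was not called. In the Hdac4-shRNA libraries only Ctsb, Ctsz and Ctsl held larger shares than Ctsk. The shares are descriptive, since each depends on all 10 genes and on the length of their annotated exons. That length joins the exons of all annotated transcripts, not those expressed here. It is 6489 bases for Ctsl and 6051 for Ctsb, but 1512 for Ctsk and 1441 for Ctsz, so shares compare only roughly between genes. In counts alone, the Hdac4-shRNA libraries together held 7316 of Ctsk and 16100 of Ctsz, against 52329 of Ctsl and 99121 of Ctsb.

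**Figure D2:**
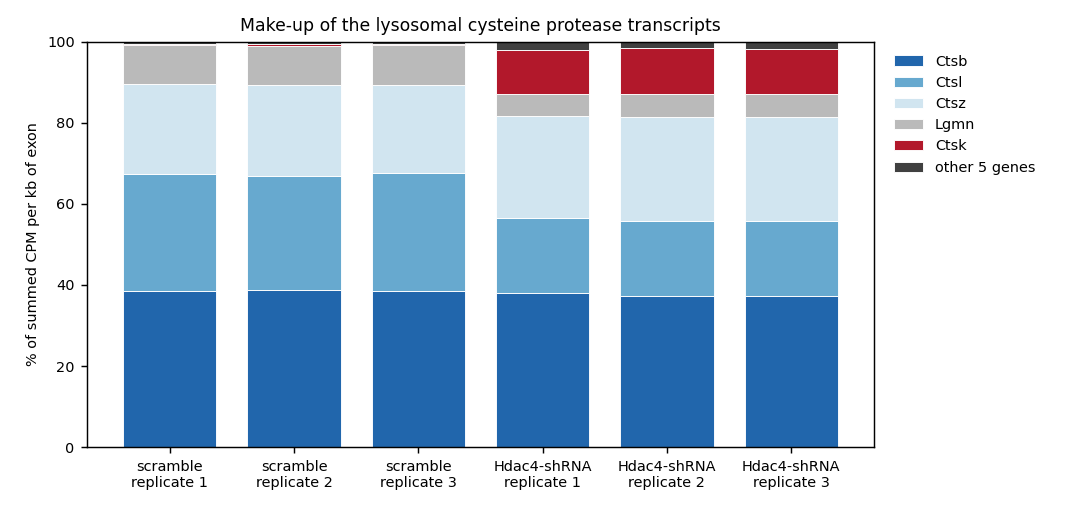
Stacked bars give the percentage of the summed CPM per kb of exon held by each cysteine protease gene in each of the 6 libraries. Ctsk (red) is a thin line of about 0.3% in the scramble bars and about 11% of each Hdac4-shRNA bar, while Ctsl (mid blue) and Lgmn (grey) are narrower there and Ctsb and Ctsz still hold most of the bar.

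Among the other proteases, Ctsd (chr7:142375911-142388038), which encodes the aspartic protease cathepsin D, had 5557, 5696 and 5254 counts in scramble and 7591, 8896 and 7683 in Hdac4-shRNA libraries. It rose 1.4-fold (log2 fold change 0.48, SE 0.05, adjusted p = 1.1e-08). The groups did not overlap, but 34.4% of its annotated exon bases also lie in exons of Gm49369 on the same strand, so reads there could be left unassigned. Tpp1, a tripeptidyl peptidase whose loss causes a neuronal ceroid lipofuscinosis, was higher by a log2 of 0.27 (SE 0.04, adjusted p = 9.39e-06). Ctsa encodes the serine carboxypeptidase that also protects β-galactosidase and neuraminidase 1 from degradation. It was marginally lower (log2 fold change -0.10, SE 0.04, adjusted p = 0.0373), with 17.4% of its exon bases shared with genes on the opposite strand. Its call was lost without scramble replicate 2, Hdac4-shRNA replicate 1 or Hdac4-shRNA replicate 3 (log2 -0.10 to -0.07, adjusted p = 0.0979 to 0.167) and with counts scaled by library size (-0.04) or upper quartile (-0.01) or with a filter of at least 10 counts in every library (-0.06).

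The glycosidases, which remove sugars from glycans, glycolipids and glycogen, were mostly higher: 8 of 9 were called higher (88.9%, beside 38.0% of all genes) and 1 lower (11.1%, beside 37.1%), with a median log2 fold change of 0.55. Gaa (chr11:119267887-119285454), the acid α-glucosidase that degrades glycogen, had 2703, 2876 and 2505 counts in scramble and 9234, 10385 and 8923 in Hdac4-shRNA libraries. It rose 3.37-fold (log2 fold change 1.75, SE 0.05, adjusted p = 3.2e-17), the largest rise outside the cysteine proteases. Idua (chr5:108660331-108684557), the α-L-iduronidase of dermatan and heparan sulfate breakdown, had 156, 180 and 149 counts against 388, 417 and 324. It rose 2.22-fold (log2 fold change 1.15, SE 0.11, adjusted p = 1.58e-08). In both genes the lowest Hdac4-shRNA library was above the highest scramble library.

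A middle set of glycosidases rose by log2 values of 0.40 to 0.67. It held Man2b1 (lysosomal α-mannosidase, 0.67), Hexa (the α subunit of β-hexosaminidase, 0.57), Naglu (a glucosaminidase of heparan sulfate breakdown, 0.55), Gla (α-galactosidase A, 0.53) and Gusb (β-glucuronidase, 0.40). The largest adjusted p among these 5 was 3.92e-06, for Naglu, and 12.8% of the exon bases of Hexa overlap Tmem202 on the opposite strand. Neu1, the sialidase bound by the Ctsa product, was called higher by only 0.17 (SE 0.07, adjusted p = 0.0395), and its call was lost on leaving out any of 5 of the 6 libraries, all but Hdac4-shRNA replicate 1 (log2 0.12 to 0.18, adjusted p = 0.0616 to 0.204), with DESeq2 (adjusted p = 0.158), and with no filter beyond 1 count (adjusted p = 0.17). Glb1, the β-galactosidase of the same complex, was the only glycosidase called lower (log2 fold change -0.21, SE 0.07, adjusted p = 0.014). Its groups overlapped, with 1125, 1281 and 1054 counts in scramble and 979, 1197 and 962 in Hdac4-shRNA libraries. The Glb1 call was lost without scramble replicate 2, Hdac4-shRNA replicate 1 or Hdac4-shRNA replicate 3 (log2 -0.17 to -0.15, adjusted p = 0.0762 to 0.0958) and with counts scaled by library size (-0.15) or upper quartile (-0.12).

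All 4 sulfatases, which take sulfate groups off glycosaminoglycans and sulfatide, were higher, where 38.0% of all genes were, with a median log2 fold change of 0.60. With only 4 genes such a share is uncertain. Sgsh (chr11:119343425-119355536), the sulfamidase of heparan sulfate breakdown, had 420, 427 and 374 counts in scramble and 1292, 1379 and 1251 in Hdac4-shRNA libraries. It rose 3.07-fold (log2 fold change 1.62, SE 0.06, adjusted p = 1.37e-14). Arsb, which removes sulfate from dermatan and chondroitin sulfate, rose by 0.64, Ids, the iduronate sulfatase, by 0.56, and Arsa, the arylsulfatase acting on sulfatide, by 0.27 on the log2 scale (adjusted p = 7.94e-09, 1.8e-08 and 0.000782). No sulfatase had overlapping groups, as was so for 76.8% of all genes tested. Between 18.8% and 39.9% of the exon bases of Sgsh, Arsa and Arsb overlap exons of a gene on the opposite strand, and these libraries hold no strand, so their counts are less certain.

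Of the 5 genes for lipid breakdown and lipid handling in the lumen, 4 were higher (80.0%, beside 38.0% of all genes) and 1 was lower (20.0%, beside 37.1%). Psap (chr10:60277627-60302597), the precursor of the saposins that help hydrolases reach sphingolipids, had the highest level per kb of any member, 566 CPM in scramble. It had 47941, 46456 and 43891 counts in scramble and 63197, 70322 and 62421 in Hdac4-shRNA libraries. It rose 1.35-fold (log2 fold change 0.43, SE 0.04, adjusted p = 1.54e-09). The hydrolase genes Lipa (acid lipase), Asah1 (acid ceramidase) and Smpd1 (acid sphingomyelinase) rose by 0.43, 0.36 and 0.29 on the log2 scale, with adjusted p of 0.000103 or less.

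Npc2 was the exception in this group. It encodes the soluble protein that hands cholesterol to the membrane protein NPC1 for export. It had 17055, 16566 and 15343 counts in scramble and 11025, 12159 and 11140 in Hdac4-shRNA libraries. No Hdac4-shRNA library reached the lowest scramble library, and the level fell to 66.9% (log2 fold change -0.58, SE 0.04, adjusted p = 4.17e-11). The partner gene Npc1 was at 1.08 times the scramble level (log2 fold change 0.11, SE 0.05, adjusted p = 0.0453), a call lost without scramble replicate 1, scramble replicate 3 or Hdac4-shRNA replicate 2 (log2 0.07 to 0.10, adjusted p = 0.118 to 0.289) with DESeq2 (adjusted p = 0.138), and with no filter beyond 1 count (adjusted p = 0.208).

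The membrane proteins showed the smallest differences: 2 of 5 were higher and 2 lower (40.0% each, near the shares of all genes), 1 was not called, and none reached a log2 of 0.5 in size. Lamp1, a major glycoprotein of the lysosomal membrane and a usual marker of lysosome content, had 19257, 21289 and 19313 counts in scramble and 19305, 24091 and 19134 in Hdac4-shRNA libraries. The groups overlapped, and Lamp1 was not called (log2 fold change -0.01, 95% interval -0.12 to 0.10, adjusted p = 0.9), with a positive sign under scaling by library size (0.05) or upper quartile (0.08). Hdac4-shRNA replicate 2 stood highest, and without it Lamp1 was called lower (log2 -0.09, adjusted p = 0.0461). Lamp2, its relative, which also serves chaperone-mediated autophagy, had 11570, 10884 and 10809 counts against 9647, 9186 and 9248. It fell to 80.6% (log2 fold change -0.31, SE 0.04, adjusted p = 1.59e-06).

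Mcoln1, the lysosomal calcium channel gene, had 1748, 1716 and 1658 counts against 1437, 1592 and 1516. It fell to 84.7% (log2 fold change -0.24, SE 0.05, adjusted p = 0.000325). Scarb2, which carries glucocerebrosidase to the lysosome, was marginally higher at 1.08 times the scramble level (log2 fold change 0.12, SE 0.04, adjusted p = 0.0209). The Scarb2 call was lost without scramble replicate 2, scramble replicate 3 or Hdac4-shRNA replicate 1 (log2 0.08 to 0.11, adjusted p = 0.0624 to 0.165) and with no filter beyond 1 count (adjusted p = 0.125).

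Tfeb, the transcription factor of lysosomal genes, had 311, 307 and 318 counts in scramble and 398, 495 and 430 in Hdac4-shRNA libraries. The groups did not overlap, and Tfeb rose 1.35-fold (log2 fold change 0.43, SE 0.09, adjusted p = 0.000336). Its relatives in the same family were measured too: Tfe3 went from 82.4 ± 2.3 to 55.2 ± 0.23 CPM (log2 fold change -0.58, SE 0.05, adjusted p = 1.07e-09) and Mitf from 11.6 ± 1.2 to 14.4 ± 1.3 CPM (log2 fold change 0.31, SE 0.10, adjusted p = 0.0073). Tfec had at most 1 count in any library. Tfeb activity is set largely by where the protein sits in the cell, which counts of RNA do not show.

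The letters of the motif bound by this family were searched for in RefSeq promoter windows of GRCm38.p6, 250 bases before to 50 bases after each start. The 8-base form GTCACGTG (CACGTGAC on the other strand) always contains the 6-base core CACGTG, which reads the same on both strands. Windows were held for 33 members, in 38 windows, and were missing for Asah1, Ctsb, Ctsh and Npc1. The 8-base form was present for 10 members (30.3%), beside 4.66% of the tested genes with a window, and in 2.25% of all 32851 windows. The core was present for 13 members (39.4%), beside 11.5% of tested genes and 7.15% of all windows. A match is a run of letters, not a measured binding site.

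The sites of 8 members that rose, fell or were not called are shown so that they can be set beside the values above, together with the promoter of Ctsk. Bases are in lower case with the 8-base form or the core in capitals, on the strand of the gene, and the range in parentheses is in GRCm38.p6. Runs of 30 bases (Sgsh, Naglu, Ctsd and Mcoln1) reach into an exon of the GENCODE annotation, although they lie before the RefSeq start, and the runs of 70 bases do not. The Lgmn run touches no exon but lies inside the annotated gene, which reaches to base 102439813 on the minus strand. Of the matches not printed, those of Ctsa and Ctsl also lie inside their annotated genes.
Gaa (chr11:119267791-119267860, plus strand, higher): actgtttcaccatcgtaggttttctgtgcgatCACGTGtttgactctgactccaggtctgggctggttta
Sgsh (chr11:119355522-119355551, minus strand, higher): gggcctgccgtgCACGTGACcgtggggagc
Naglu (chr11:101070009-101070038, plus strand, higher): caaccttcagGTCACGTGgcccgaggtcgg
Ctsd (chr7:142387908-142387937, minus strand, higher): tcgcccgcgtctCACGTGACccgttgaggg
Lamp1 (chr8:13159091-13159160, plus strand, not called): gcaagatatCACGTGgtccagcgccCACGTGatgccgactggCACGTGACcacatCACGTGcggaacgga
Glb1 (chr9:114400998-114401067, plus strand, lower): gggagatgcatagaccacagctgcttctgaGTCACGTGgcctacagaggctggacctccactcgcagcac
Mcoln1 (chr8:3500462-3500491, plus strand, lower): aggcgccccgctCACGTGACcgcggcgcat
Lgmn (chr12:102439104-102439173, minus strand, lower): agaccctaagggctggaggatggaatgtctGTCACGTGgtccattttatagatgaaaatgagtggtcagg
Ctsk (chr3:95499140-95499209, plus strand, higher, no match): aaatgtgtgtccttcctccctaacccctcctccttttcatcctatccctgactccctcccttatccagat

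The genes with the motif did not share a direction. Of the 10 members with the 8-base form, 5 were higher (Sgsh, Naglu, Gla, Ctsd and Arsa), 4 were lower (Lgmn, Mcoln1, Glb1 and Ctsa) and Lamp1 was not called, with a median log2 fold change of 0.13. Lamp1 held 4 copies of the core, the most of any member, 15 to 61 bases before its start. Of the 3 members with the core alone, Gaa was higher and Ctsl and Ctsf were lower. Of the 20 members whose windows held no match, 18 were tested: 15 were higher, 2 were lower and 1 was not called, with a median of 0.43. Ctsk was among these 15. Over all genes tested 38.0% were higher and 37.1% lower, and the difference between members with and without the motif was not tested.

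**Figure D3:**
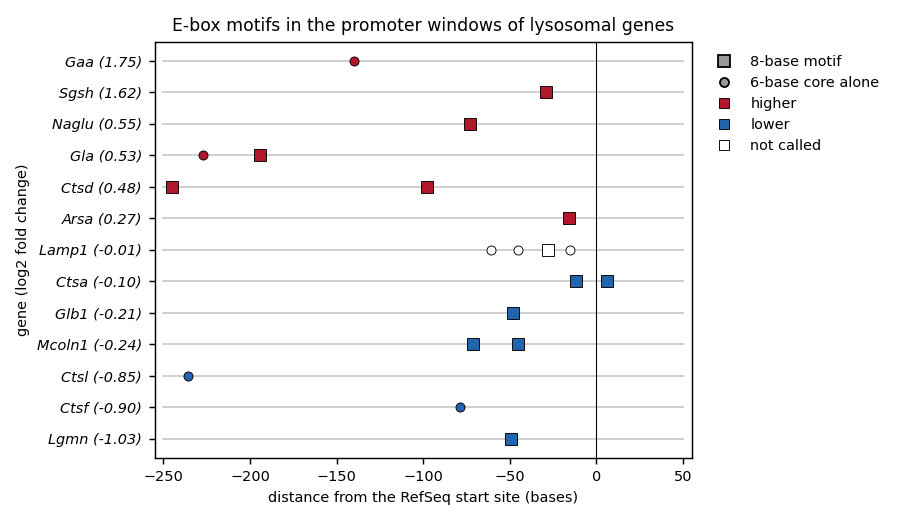
Motif positions (squares, 8-base form; circles, core alone) are plotted as the distance in bases from the RefSeq start to the first base of the core, for the 13 members with a match, ordered by log2 fold change and coloured by call. Red (higher) and blue (lower) genes both hold matches within 100 bases of the start, and Lamp1 (white) holds 4.

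The summed counts of the 37 members took 0.726%, 0.726% and 0.715% of all gene counts in scramble and 0.76%, 0.806% and 0.769% in Hdac4-shRNA libraries. The groups did not overlap. These shares, and those below, are of counts not scaled by TMM. The TMM factors were 0.977 to 0.985 in scramble and 1.019 to 1.021 in Hdac4-shRNA libraries. In scaled CPM the sums lay nearer each other, at 7373, 7440 and 7299 against 7452, 7912 and 7554. Without Psap the unscaled shares were 0.571%, 0.575% and 0.564% against 0.552%, 0.583% and 0.558%, and the groups overlapped. With TMM scaling and without Psap, every Hdac4-shRNA library lay below every scramble library. Without Psap and the falling genes Ctsb and Ctsl the unscaled shares were 0.344%, 0.351% and 0.345% against 0.391%, 0.412% and 0.394%, higher in the Hdac4-shRNA libraries. Leaving out falling genes moves a sum that way by construction, so this sum only describes the remaining genes. By role, the glycosidases went from 0.0425% ± 0.0012 to 0.079% ± 0.0032 of gene counts and the sulfatases from 0.014% ± 0.0003 to 0.0231% ± 0.0008, while the cysteine proteases went from 0.254% ± 0.005 to 0.201% ± 0.007 (SD, n = 3 each).

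Other genes of the pathway were counted in 7 lists of 130 genes, of which 114 were tested. Over these, 50 (43.9%) were called higher and 31 (27.2%) lower, beside 38.0% and 37.1% of all genes, and their median log2 fold change was 0.07. Further hydrolases and cofactors outside the 37 were higher in 13 (52.0%) and lower in 6 (24.0%) of 25 tested, beside the same shares of all genes, with a median of 0.23. Gm2a, the activator protein for ganglioside breakdown, was the farthest of these with enough counts: 146, 153 and 153 in scramble and 53, 54 and 54 in Hdac4-shRNA libraries (log2 fold change -1.56, SE 0.16, adjusted p = 4.46e-08). Its direction was opposite to that of Hexa, whose product it assists.

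Of 13 genes that sort hydrolases to the lysosome, 4 were higher and 4 were lower (30.8% each, beside 38.0% and 37.1% of all genes). Igf2r, the large mannose 6-phosphate receptor, which also clears insulin-like growth factor 2, had 604, 619 and 595 counts in scramble and 6560, 6667 and 6165 in Hdac4-shRNA libraries. It rose 10.2-fold (log2 fold change 3.35, SE 0.05, adjusted p = 2.01e-21). The small mannose 6-phosphate receptor gene M6pr was not called (182, 171 and 176 CPM against 163, 166 and 169 CPM, adjusted p = 0.0643), nor was Gnptab, the gene of the tagging enzyme (adjusted p = 0.071).

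The proton pump that acidifies the lysosome, the vacuolar ATPase, had 8 of 19 tested subunit genes higher (42.1%) and 7 lower (36.8%), shares near those of all genes (38.0% and 37.1%), with a median of 0.04. Atp6ap2, an accessory subunit, had 3350, 2869 and 2908 counts against 1970, 1894 and 1975 (log2 fold change -0.71, SE 0.06, adjusted p = 6e-10). It was the farthest among the subunit genes averaging at least 100 counts. Atp6v0e2, a subunit gene under that mean, differed more. It had 45, 55 and 59 counts in scramble and 1, 8 and 2 in Hdac4-shRNA libraries (log2 fold change -3.88, SE 0.45, adjusted p = 2.02e-07). Further membrane proteins were higher in 5 and lower in 5 of 18 (27.8% each, below the shares of all genes). At a log2 fold change of at least 1 in size, 4 of them were higher (22.2%, beside 16.5% of all genes). None was lower at a size of at least 0.5, where 19.8% of all genes were. Gpnmb, a glycoprotein of lysosome-related organelles that is also made by osteoblasts, had 1531, 1462 and 1394 counts against 6839, 8009 and 6961 (log2 fold change 2.24, SE 0.05, adjusted p = 1.04e-18). Mcoln2, which averaged under 100 counts, differed more. It had 3, 1 and 5 counts in scramble and 64, 71 and 58 in Hdac4-shRNA libraries (log2 fold change 4.30, SE 0.40, adjusted p = 9.3e-09).

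Inhibitors of the cysteine proteases were higher in 3 and lower in 1 of 4 tested, too few to set beside the shares of all genes. Cst3, the secreted inhibitor cystatin C, had 6153, 6392 and 5615 counts in scramble and 8598, 9872 and 9019 in Hdac4-shRNA libraries (log2 fold change 0.53, SE 0.05, adjusted p = 2.41e-09). Of the MiT/TFE factors other than Tfeb and the genes that control mTORC1 at the lysosome, 7 of 15 were higher (46.7%) and 6 lower (40.0%), near the 38.0% and 37.1% of all genes, and Fnip2, a folliculin partner, was the farthest among those averaging at least 100 counts (log2 fold change 0.84, SE 0.05, adjusted p = 2.06e-12). Rragd, a Rag GTPase gene just under that mean, differed more, with 190, 146 and 159 counts in scramble and 34, 35 and 33 in Hdac4-shRNA libraries, a fall to 19.7% (log2 fold change -2.34, SE 0.18, adjusted p = 4.91e-10). The groups of neither Cst3 nor Fnip2 overlapped.

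**Figure D4:**
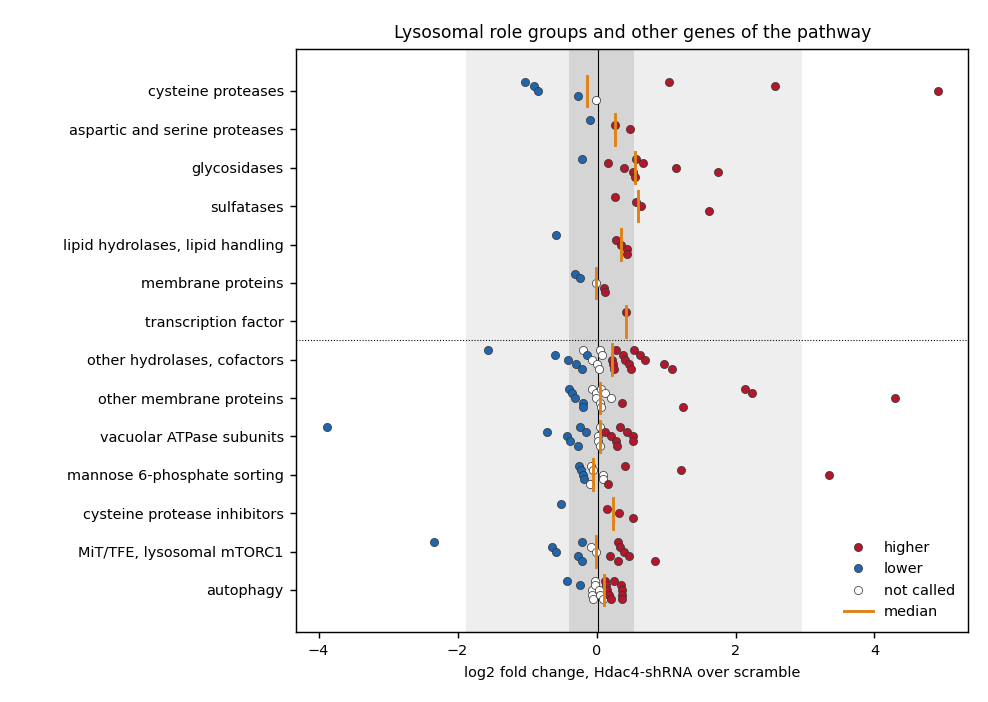
Each point is the log2 fold change (Hdac4-shRNA over scramble) of a tested gene in the 7 role groups of the lysosomal genes (above the dotted line) and in the 7 lists of other pathway genes (below it), with the median as an orange bar. The dark and light grey bands span the middle 50% and 90% of all 14531 genes tested. The medians of the glycosidases and sulfatases lie at 0.55 and 0.60, those of the membrane proteins and the vacuolar ATPase near 0, and most points lie inside the light band.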

How the data were processed

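The authors deposited 1 table of raw read counts per gene for each of the 6 libraries (unit: counts, not normalized, by Ensembl identifier). Per the submitters' processing notes, reads were checked with FastQC, aligned to mm10 with STAR (2.7.3a) and counted with HTSeq (0.12.4). Reads that fell on several genes were not assigned by the counter (5.84% to 6.51% of each library), nor were those aligned to several places (3.88% to 4.77%), and these summary lines were left out. Symbols and exons came from the GENCODE annotation of GRCm38. Counts were filtered with filterByExpr, scaled by TMM and tested across all genes with edgeR's quasi-likelihood test (edgeR 4.0.16, R 4.3.3) with no covariate, and p-values were adjusted by the Benjamini-Hochberg method. Levels per kb divide CPM by the summed length of a gene's exons, joined over all its annotated transcripts. Promoter windows came from RefSeq. The scripts were tested on simulated data first. Replicates differed by more than sampling noise in each group.

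Alternatives were other scalings, other filters, DESeq2 (1.42.0), limma-voom (limma 3.58.1), a replicate block, larger fold thresholds and leaving out each library. Per-library values are given for the 6 most positive and the 6 most negative fold changes among called members averaging at least 100 counts, the 3 highest per kb, the farthest called gene of each role group, Lamp1, Lamp2, Tfeb, and members not called or not tested. The farthest called gene of each other list with at least 100 counts on average is named. Ctsf, Glb1, Tfe3, Mitf, M6pr, Gnptab, Rragd, Atp6v0e2 and Mcoln2 were named outside this rule, after their values were seen. The rule for cell type markers was counts of genes and ranges. Values of single markers, such as Lyz2, Csf1r, Col1a1, Col1a2, Sp7 and Spp1, were given outside it. The 37 members and the other lists were chosen with earlier results of these data known.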

Additional observations from a re-analysis of the deposited data

How the results depend on the processing

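The count of members called higher stayed between 21 and 24 and that called lower between 7 and 10 under every alternative scaling, filter and tool and on leaving out each library (21 to 23 higher and 7 to 10 lower). With a log2 fold change of at least 0.5 in size the counts were 12 higher and 4 lower, and with at least 1 they were 6 and 1, by the construction of the threshold. The median log2 fold change of the members, 0.36, was 0.42 with scaling by library size alone, 0.45 by upper quartile and 0.40 with at least 10 counts in every library, and 0.34 to 0.37 on leaving out each library. Scaling by upper quartile raised the median of all genes by 0.09 and the share of calls that were higher from 50.6% to 57.8%. The other pathway genes called higher, 50 in the main test, ran from 44 (DESeq2) to 62 (upper quartile). Those called lower, 31 in the main test, ran from 25 (upper quartile) to 33 (no filter beyond 1 count).

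Of 35 tested members, 28 kept their direction and their side of the threshold under the alternatives run, and 7 (Ctsz, Ctsa, Glb1, Neu1, Lamp1, Npc1 and Scarb2) did not. Ctsz and Lamp1, not called, turned positive: Ctsz to 0.0505 (library size), 0.083 (upper quartile) and 0.0313 (at least 10 counts), and Lamp1 to 0.0487, 0.0814 and 0.0294 in the same order. On leaving out each library Ctsz ranged from -0.0441 (without scramble replicate 3) to 0.0382 (without Hdac4-shRNA replicate 1) and Lamp1 from -0.0938 (without Hdac4-shRNA replicate 2, then called lower) to 0.0481 (without Hdac4-shRNA replicate 1). The cause was not tested.

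The replicate numbers did not pair the samples (correlations of same-numbered samples -0.00995, 0.0133 and 0.0128). With the replicate block, 24 members were higher and 9 lower with a median of 0.36, and 51 and 32 of the other pathway genes. Genes under about 100 counts, such as Ctsf, and those at a few counts, Ctsc and Ctss, are limited by depth.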

Other observations

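Autophagy genes, which deliver cargo to the lysosome, were counted as a list of 20, all tested: 10 were higher (50%, beside 38.0% of all genes tested), 2 were lower (10.0%, beside 37.1%) and 8 were not called, with a median log2 fold change of 0.10 and none at 0.5 or more in size. Higher genes included Map1lc3b and Gabarapl1, which encode ubiquitin-like proteins of the autophagosome membrane (0.25 and 0.36 on the log2 scale, adjusted p = 4.97e-05 and 2.45e-06 in edgeR's quasi-likelihood test). The 2 lower genes were Wipi1, a phosphoinositide-binding protein gene (2479, 2736 and 2515 counts in scramble and 2043, 2159 and 1860 in Hdac4-shRNA libraries, log2 fold change -0.42, SE 0.05, adjusted p = 6.51e-07), and Sqstm1, the gene of the cargo receptor p62 (42887, 42293 and 39606 counts against 35474, 39962 and 35936, log2 fold change -0.23, SE 0.04, adjusted p = 1.35e-05). Their CPM did not overlap between the groups. Map1lc3b, Gabarapl1 and Sqstm1 were named after their values were seen.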
